A study of Mus musculus with 13 samples.

Results

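In control mouse embryonic stem (ES) cells, the genes of the RNA-seq count table were set against the replication origins of the same cell line, to ask how the presence, strength and sequence of origins vary with the level of transcription. Genes were grouped by their mean control expression in CPM (counts scaled to the total of each library): 6100 genes with no count in any control library formed a zero group, and the remaining genes were cut into 5 equal groups of 3567 or 3568 (the lowest, the second, the third, the fourth and the highest). The groups hold 23938 of the 24079 genes of the table. The other 141 could not be placed on the annotation or shared the number of another gene. An origin was a region with a peak in at least 2 of the 3 control lists after peaks overlapping by 1 bp had been merged (73169 origins). A gene was scored for an origin within 2 kb of any of its transcription start sites (TSS, its promoter here) and for an origin anywhere in its body, on the curated RefSeq annotation of mm10.

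The study compared CGR8 ES cells kept for 48 h in 0.5% DMSO with cells given the G-quadruplex ligand PhenDC3, and 6 of its 13 samples are used here: 3 control samples of short nascent strand sequencing (SNS-seq) and 3 control samples of RNA-seq. CGR8 is a feeder-free line, grown here on gelatin with LIF and serum as an asynchronous culture, and the labels name no change of genotype. All 6 samples received the same DMSO, so none is fully untreated. SNS-seq and RNA-seq replicates share numbers but nothing states that they came from the same cultures. The study calls the control SNS-seq samples biological replicates, and separate cultures are not stated for the RNA-seq samples, so that their spread may be technical.

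Replication starts at many sites in a mammalian genome, where the origin recognition complex and its partners load the MCM helicase in G1 and a part of the loaded sites fires in S phase. A newly fired origin leaves short DNA strands that begin with an RNA primer, and SNS-seq purifies these strands, here from the 0.5 to 2 kb fraction, by digesting all DNA without such a primer. Origins are known to lie often near TSS, in CpG islands and beside sequences that can fold into G-quadruplexes (G4), which are stacks of guanines held together on 1 strand. Since promoters of widely expressed genes are also rich in G, C and CpG, transcription and base composition travel together in any such comparison.

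The 3 control lists held 120882, 81211 and 79377 peaks on the nuclear chromosomes in replicates 1, 2 and 3. Of these, 56.4%, 80.4% and 75.9% lay in an origin, and 48.5% of the origins had a peak in all 3 lists. The peaks of all 3 lists were set against the same RNase-treated library, and since a list gives peaks without reads, their depth is unknown. The RNA libraries had between 22232014 and 29486502 counts, of which between 2.55% and 5.70% fell on the ribosomal RNA gene Rn45s. Their gene levels had a Spearman correlation of 0.978 to 0.984 for each pair over 23938 genes, and 80.3% to 86.1% of the genes fell in the same group in both libraries of a pair. The 20 pluripotency genes all had counts and summed to between 9068 and 9963 CPM. The 8 fibroblast markers summed to between 7.73 and 8.32 CPM, with 3 of them at 0, and 7 markers of primitive endoderm to between 374 and 536 CPM, with none at 0, of which Sparc alone gave 435, 372 and 331 CPM in replicates 1, 2 and 3. The 6 markers of the two-cell-like state summed to between 3.47 and 5.22 CPM. Replicate 3 stood apart from the others in what follows, and each main result is therefore given by list.

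The share of genes with an origin at the promoter rose from group to group. It was 14.6% in the zero group (891 genes, 95% Wilson interval 13.7% to 15.5%), 34.1% in the lowest (1217 genes), 51.9% in the second (1851), 59.9% in the third (2136), 60.8% in the fourth (2170) and 64.7% in the highest (2309 genes, 63.1% to 66.3%), against 44.2% of all genes. Intervals cover counting error over genes only. The zero group holds 1053 olfactory receptor genes, 300 vomeronasal receptor genes and 914 microRNA genes. With control replicate 1 alone, the share of genes with a peak rose from 17.9% in the zero group to 73.5% in the highest. It rose from 14.8% to 70.6% with replicate 2, and from 13.7% to 41.5% with replicate 3. Replicate 3 was thus close to the others among genes without counts and far below them among expressed genes. The difference between the highest and the zero group had the same sign in each list, with a mean over lists of 46.5 percentage points ± 16.1 (SD, n = 3), and 50.1 points for the origins. A two-sided exact sign-flip permutation test over the 3 lists gave p = 0.25, which is the smallest p that 3 lists allow. With a peak required in all 3 lists the difference was 25.9 points, and without replicate 1 or 2 it was 27.0 and 26.3 points.

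**Figure D1:**
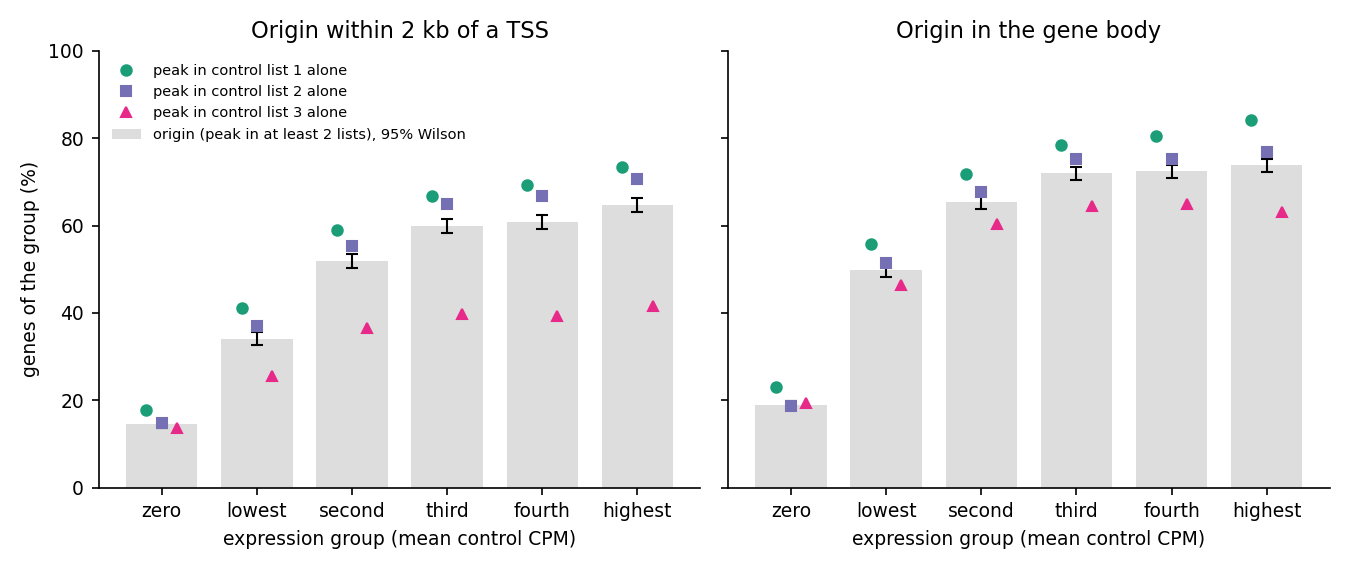
Share of genes with an origin within 2 kb of a TSS (left) and in the gene body (right), in % of the genes of each expression group. Grey bars are origins, with 95% Wilson intervals, and points are peaks of each control list alone. The bars at promoters climb from 14.6% to 64.7%, and list 3 stays between 39.3% and 41.5% in the upper 3 groups while the other lists pass 70% in the highest.

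Most of the increase took place among genes with low counts. When the genes with counts were cut into 20 equal groups, the share with an origin at the promoter was 28.9% at a median of 0.0150 CPM, 48.5% at 0.330 CPM and 60.4% at 3.93 CPM. Between a median of 3.93 and 93.4 CPM it stayed between 59.1% and 61.7%. In the top groups it was 66.5% at 146 CPM and 71.0% at 345 CPM. Lists 1 and 2 showed the same last step, with 81.3% and 74.6% in the top group against 69.3% and 70.0% at 93.4 CPM. In list 3 those shares were 43.4% and 42.8%, so the last step rests on replicates 1 and 2. The lowest levels lie near the floor of the counts: Hoxa9, at a mean of 0.0150 CPM, had counts in replicate 2 only. Promoter GC content, described below, also rose at low levels, from a median of 51.8% in the lowest of the 5 groups to 58.7% in the third.

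Origins were most frequent near the TSS in every group. In bins of 250 bp around the 5′-most TSS, the highest group reached 38.1% of genes with an origin at 375 bp downstream, while the mean of the bins between 10 and 20 kb was 4.39% upstream and 3.78% downstream. In the zero group the top of the profile was 4.70%, over 2.00% and 1.97% at the same distances. The zero group therefore had a lower level also away from its TSS. The lowest group was also lower there, with 3.10% upstream, while the second to the highest group lay between 3.95% and 4.39%. Just past the TSS the curve of the highest group dipped, from 36.0% in the bin centred 125 bp upstream to 31.6% in the bin centred 125 bp downstream, before it reached 38.1%. The middle of promoter origins lay a median of 89.0 bp downstream of the nearest TSS in the zero group and of 168 bp in the highest, and the share of origins centred within 500 bp of a TSS was 35.4% and 47.5%. Profiles around gene ends stayed far lower, with a top of 3.15% in the zero group and of 7.37% in the second, 2125 bp before the end. In the highest group the mean was 4.42% in the 1 kb before the end and 3.32% in the 1 kb past it. Between 10 and 20 kb from the end it was 4.32% upstream and 5.41% downstream, so that group had no rise at the end. Of genes of at least 10 kb in the highest group, 17.1% had an origin within 2 kb of the end, against 63.6% at the 5′-most TSS, and in the zero group these shares were 8.02% and 15.2%.

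**Figure D2:**
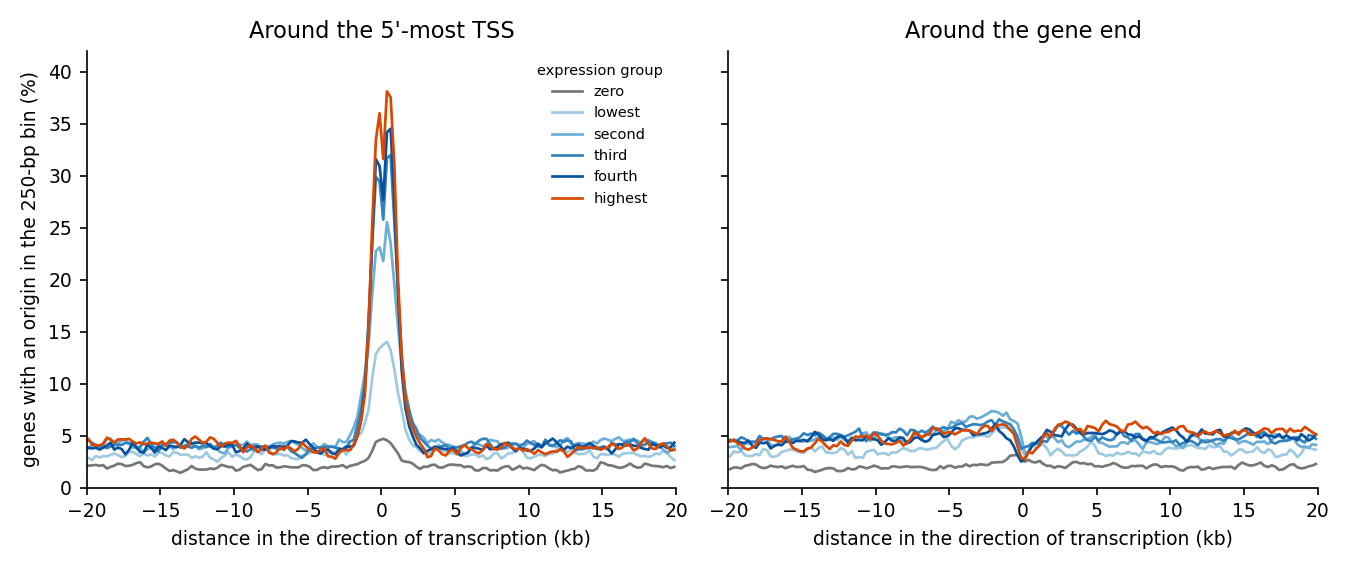
Share of genes with an origin in each 250-bp bin around the 5′-most TSS (left) and the annotated gene end (right), by expression group, with distance in kb in the direction of transcription. The curves fan out within about 2 kb of the TSS, from 4.70% in the zero group to 38.1% in the highest. Between 10 and 20 kb upstream the mean is 2.00% in the zero group, 3.10% in the lowest and 3.95% to 4.39% in the others.

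Base composition moved with the expression groups. Over the 500 bp on each side of the 5′-most TSS, median GC content was 44.6% in the zero group, 51.8%, 56.0%, 58.7% and 60.0% in the next ones, and 60.1% in the highest. A promoter was called CpG-rich where the observed over expected CpG ratio was at least 0.6 and the GC content at least 50% in that window. By this rule 5.03% of zero-group promoters and 85.8% of those of the highest group were CpG-rich. Within each expression group, genes with an origin had the more GC-rich promoters. In the zero group the median GC content was 53.6% with an origin (891 genes) and 43.4% without (5209 genes), and in the highest group it was 62.9% with (2309 genes) and 56.1% without (1258 genes).

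Among CpG-rich promoters the share with an origin did not rise with expression. It was 74.9% in the zero group (230 of 307 genes, 69.8% to 79.4%), 71.5% in the lowest, 74.7% in the second, 69.9% in the third, 66.1% in the fourth and 67.8% in the highest (2075 of 3060 genes, 66.1% to 69.4%). The highest minus the zero group was -7.11 points for the origins, and -9.29, -3.54 and -2.80 points with peaks of replicates 1, 2 and 3 (mean -5.21 ± 3.56, SD, n = 3, exact sign-flip permutation p = 0.25). This split of promoters was added after the data had been seen. Of the 307 zero-group genes, 169 were protein-coding, and 121 of these had an origin (71.6%, 64.4% to 77.9%). Among protein-coding genes of the highest group with a CpG-rich promoter the share was 67.8% (66.1% to 69.4%). Among CpG-poor promoters the share did rise, from 11.4% in the zero group (661 of 5793 genes) through 23.8%, 36.7%, 43.3% and 41.7% to 46.2% in the highest (234 of 507 genes). There the difference was 40.0, 36.9 and 27.6 points with replicates 1, 2 and 3 (exact sign-flip permutation p = 0.25). CpG-poor promoters of the zero group had a median GC content of 44.1%, and those of the highest group 51.5%, so the groups still differed in composition.

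All promoters were cut into 5 equal classes by GC content, and the share with an origin over all genes was 7.73%, 20.6%, 38.3%, 62.3% and 91.9% from the lowest class to the highest. In the class of highest GC content, 92.7% of zero-group genes (115 of 124), 90.9%, 92.3%, 92.0% and 91.2% of the next groups and 92.5% of the highest group (1166 of 1261) had an origin. In the lowest class, the share rose from 4.76% of 3382 zero-group genes to 37.5% of 72 genes of the highest group (27.2% to 49.0%), with a median GC content of 40.1% and 43.0%. In the middle class the zero group had 32.4% and the highest 40.0%, and with replicates 1, 2 and 3 the difference was 7.36, 12.4 and -0.815 points (exact sign-flip permutation p = 0.50). In class 2 the shares were 13.7% and 31.0%. In class 4 the highest group was the lower one, with 62.7% against 67.2% in the zero group, and the differences were -0.280, 3.70 and -9.86 points (exact sign-flip permutation p = 0.75). When all groups were weighted to the same distribution of GC content, the share was 42.8% in the zero group and 53.6% in the highest, a difference of 10.8 points where the unweighted one was 50.1. It was 13.4, 15.7 and 6.78 points with replicates 1, 2 and 3. Weighting to the same CpG ratio left 12.8 points. Replicate 3 differed from the others by GC content: in the class of highest GC it had a peak at 54.0% of promoters, where replicates 1 and 2 had one at 96.1% and 96.5%, while in the lowest class the shares were 7.21% with replicate 3 and 9.94% and 8.08% with replicates 1 and 2. The part of GC content in the difference between the lists was not tested.

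**Figure D3:**
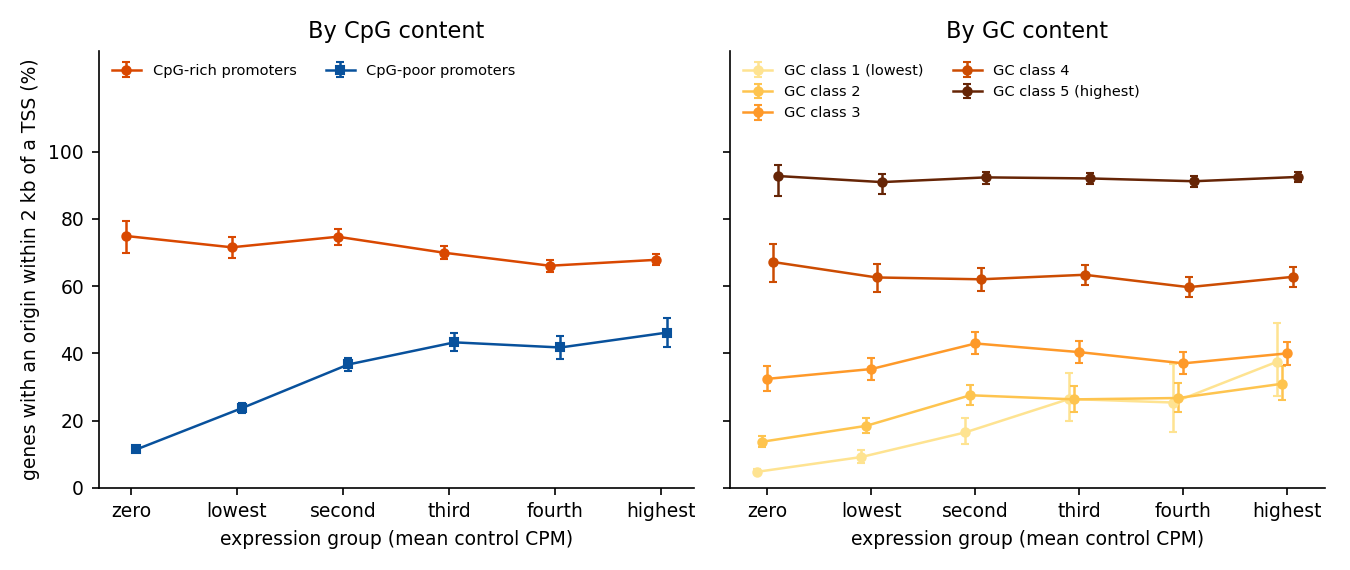
Share of genes with an origin within 2 kb of a TSS by expression group, for CpG-rich and CpG-poor promoters (left) and for the 5 equal classes of promoter GC content, numbered from the lowest (right), with 95% Wilson intervals. CpG-rich promoters run from 74.9% to 67.8% and CpG-poor ones from 11.4% to 46.2%, and the class of highest GC content stays between 90.9% and 92.7%.

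The promoters of 8 genes show the contrast in letters, as pairs from the named genes with and without expression and with and without a peak. Each is the RefSeq promoter on GRCm38.p6, 250 bases before to 50 after the TSS, 5′ to 3′ on the strand of the gene, with every CG in capitals. Promoter sequences were matched for 17906 of the 23938 genes, 95.3% of them hold at least 1 CG and 57.7% at least 10. Eef1a1 (chr9:78481675-78481974, minus strand), which encodes the translation elongation factor eEF1A, and Pkm (chr9:59656326-59656625, plus strand), which encodes a pyruvate kinase of glycolysis, were among the highest expressed genes with an origin in all 3 lists, and hold 22 and 27 CG.
Eef1a1: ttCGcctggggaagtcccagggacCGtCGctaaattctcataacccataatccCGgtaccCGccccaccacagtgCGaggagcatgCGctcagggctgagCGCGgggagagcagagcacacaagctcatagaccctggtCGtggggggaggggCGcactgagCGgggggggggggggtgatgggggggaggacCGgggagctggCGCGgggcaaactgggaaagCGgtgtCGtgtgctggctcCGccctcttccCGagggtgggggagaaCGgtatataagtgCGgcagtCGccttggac
Pkm: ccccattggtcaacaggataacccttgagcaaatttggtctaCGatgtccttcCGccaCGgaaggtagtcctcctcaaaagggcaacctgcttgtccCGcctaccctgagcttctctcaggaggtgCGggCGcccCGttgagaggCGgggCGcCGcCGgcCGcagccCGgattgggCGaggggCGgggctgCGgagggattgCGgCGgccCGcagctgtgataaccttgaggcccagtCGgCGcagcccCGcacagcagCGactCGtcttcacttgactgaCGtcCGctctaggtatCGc

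Rpl9 (chr5:65391382-65391681, minus strand) and Rps4x (chrX:102189342-102189641, minus strand) encode proteins of the large and the small ribosomal subunit. They were highly expressed without a peak of any list at the promoter or in the body, and hold 35 and 13 CG.
Rpl9: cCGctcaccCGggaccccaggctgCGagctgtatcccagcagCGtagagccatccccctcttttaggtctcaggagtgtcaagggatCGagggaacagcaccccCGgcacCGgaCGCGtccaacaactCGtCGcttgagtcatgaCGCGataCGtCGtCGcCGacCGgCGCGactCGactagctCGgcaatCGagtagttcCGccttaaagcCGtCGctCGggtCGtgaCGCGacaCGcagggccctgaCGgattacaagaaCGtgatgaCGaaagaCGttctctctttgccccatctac
Rps4x: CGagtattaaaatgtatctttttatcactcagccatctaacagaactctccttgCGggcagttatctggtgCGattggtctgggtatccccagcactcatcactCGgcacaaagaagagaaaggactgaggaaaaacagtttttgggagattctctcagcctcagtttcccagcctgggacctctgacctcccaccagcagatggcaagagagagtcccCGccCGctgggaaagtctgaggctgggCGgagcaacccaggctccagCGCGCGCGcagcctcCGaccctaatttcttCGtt

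Olig2 (chr16:91225300-91225599, plus strand), a transcription factor of oligodendrocytes and motor neurons, and Hoxa5 (chr6:52204538-52204837, minus strand), a factor of axial patterning, had no count in any library. Olig2 had peaks in all 3 lists and Hoxa5 in 2, and they hold 25 and 29 CG.
Olig2: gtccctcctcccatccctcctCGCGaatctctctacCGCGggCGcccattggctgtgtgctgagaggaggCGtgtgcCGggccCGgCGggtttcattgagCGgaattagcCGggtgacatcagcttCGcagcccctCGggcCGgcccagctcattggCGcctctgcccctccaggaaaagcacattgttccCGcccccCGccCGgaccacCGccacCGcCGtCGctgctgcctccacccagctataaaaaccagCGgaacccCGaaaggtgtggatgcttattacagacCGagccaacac
Hoxa5: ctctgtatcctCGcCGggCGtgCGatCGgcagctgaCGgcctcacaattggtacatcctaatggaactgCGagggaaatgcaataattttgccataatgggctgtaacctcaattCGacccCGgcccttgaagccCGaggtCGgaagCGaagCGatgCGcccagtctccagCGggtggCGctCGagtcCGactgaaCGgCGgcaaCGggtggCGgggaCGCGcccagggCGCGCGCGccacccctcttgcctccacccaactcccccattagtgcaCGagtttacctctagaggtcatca

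The olfactory receptor genes Olfr1 (chr11:73399446-73399745, minus strand) and Olfr10 (chr11:49317298-49317597, plus strand) had neither counts nor peaks, and hold 1 and 2 CG. Olig2 and Hoxa5, without counts, thus resemble Eef1a1 and Pkm in CG number, and Rpl9 shows that a promoter with many CG and strong expression can lack a peak.
Olfr1: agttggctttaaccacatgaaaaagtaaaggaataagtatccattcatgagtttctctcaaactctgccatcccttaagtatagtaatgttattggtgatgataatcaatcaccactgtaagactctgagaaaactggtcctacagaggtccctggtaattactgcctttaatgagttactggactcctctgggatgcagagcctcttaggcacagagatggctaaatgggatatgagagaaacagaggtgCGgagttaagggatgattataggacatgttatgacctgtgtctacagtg
Olfr10: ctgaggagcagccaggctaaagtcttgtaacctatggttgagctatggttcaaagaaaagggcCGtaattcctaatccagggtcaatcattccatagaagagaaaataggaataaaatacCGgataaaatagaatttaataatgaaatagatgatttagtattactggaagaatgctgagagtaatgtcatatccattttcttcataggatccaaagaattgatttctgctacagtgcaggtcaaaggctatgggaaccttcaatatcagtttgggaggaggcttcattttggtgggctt

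Origins in gene bodies followed a similar course, but the body as scored begins at the TSS, so that an origin there counts in both measures. Genes with an origin in the body and none at the promoter made up 9.77% of the zero group. They were 21.9% of the lowest, 18.6%, 16.9% and 16.1% of the next groups and 13.6% of the highest. The share of genes with an origin in the body was 18.9% in the zero group (1152 genes), 49.9%, 65.4%, 72.0% and 72.4% in the next groups and 73.8% in the highest (2631 genes), against 54.5% of all genes. It rose from 23.1% to 84.1% with replicate 1, from 18.8% to 76.9% with replicate 2 and from 19.3% to 63.1% with replicate 3 (mean difference 54.3 points ± 9.25, SD, n = 3, exact sign-flip permutation p = 0.25). Gene length moved with the groups: the median was 3.12 kb in the zero group and 23.0 kb in the highest. Weighted to the same gene length, the shares were 32.5% and 70.9%. In the longest of 5 equal length classes, above 50.4 kb, 74.4% of zero-group genes and 90.7% of the highest group had an origin in the body. With an origin counted in either place, 24.4% of zero-group genes and 78.4% of the highest group had an origin, against 59.7% of all genes.

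Away from TSS the density of merged origins rose up to the third group and no further, while the peaks of replicate 1 alone rose again in the highest group, from 5.43 per 100 kb in the third and 5.29 in the fourth to 6.25. Over the parts of gene bodies more than 2 kb from any TSS, it was 1.46 origins per 100 kb in the zero group, 2.01 in the lowest, 2.93 in the second, 3.33 in the third, 3.16 in the fourth and 3.24 in the highest. Between the zero and the highest group it rose from 2.29 to 6.25 peaks per 100 kb with replicate 1, from 1.48 to 3.52 with replicate 2 and from 1.84 to 4.0 with replicate 3 (mean difference 2.72 ± 1.07, SD, n = 3, exact sign-flip permutation p = 0.25). For the origins the difference was 1.78 per 100 kb, 0.781 with a peak required in all 3 lists, 0.765 with peaks above the median −log10 p of their list, and 1.11, 1.11 and 1.15 without replicate 1, 2 and 3. Genes of at least 20 kb were cut into 10 bins of equal length. The first bin held 2.36 origins per 100 kb in the zero group, 9.34 in the third and 14.2 in the highest, while bin 5 held 1.19, 2.94 and 2.85. From the second group to the highest, the groups thus differed at the 5′ end more than in the middle of the gene. The last bin of the highest group held 3.97.

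**Figure D4:**
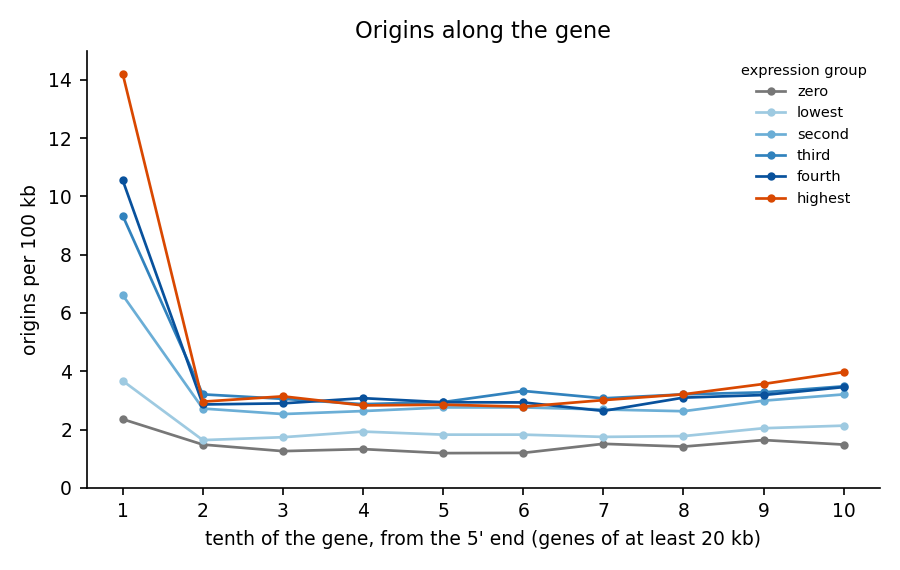
Origins per 100 kb in each of 10 equal bins of the gene, from the 5′ end, for genes of at least 20 kb by expression group. The first bin spreads from 2.36 in the zero group to 14.2 in the highest, and from bin 2 on the second to the highest group run together between 2.53 and 3.97. The length of a bin follows that of its gene and differs between groups.

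The strength of promoter peaks moved with expression in different ways in the 3 lists. Strength was the percentile of the −log10 p of a peak within its list. The median over promoter peaks in origins was 66.9 in the zero group and 68.8 in the highest with replicate 1, 60.4 and 71.6 with replicate 2, where it rose at each group, and 58.9 and 56.7 with replicate 3, so that the direction differed between lists. The mean over lists was 62.1 and 65.7. With all promoter peaks of each list, whether in an origin or not, the difference was 5.18, 7.83 and 2.68 percentile points (exact sign-flip permutation p = 0.25). For peaks in origins it was 3.61 points, and 0.122 with the 2 kb upstream of the TSS alone. The median fold enrichment of promoter peaks over the RNase-treated library was lower in the highest group in each list. It was 5.57 and 4.98 in the zero and highest group with replicate 1, 4.96 and 4.77 with replicate 2, and 5.58 and 4.72 with replicate 3.

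Predicted G4 were slightly less frequent at promoter origins of strongly expressed genes. G4Hunter scores the run of guanines and cytosines in windows of 25 bases, and 568806 G4 passed its threshold of 2 in the genome. A G4 lay within 500 bp of the centre of 66.6% of the 1254 promoter origins of the zero group (63.9% to 69.1%), 67.4%, 66.9%, 65.0% and 60.9% in the next groups and 61.4% of the 4358 origins of the highest group (60.0% to 62.9%). Origins away from TSS had one in 67.4% of cases. With peaks of replicates 1, 2 and 3 the highest group differed from the zero group by -3.91, -7.03 and -0.108 points (mean -3.68 ± 3.47, SD, n = 3, exact sign-flip permutation p = 0.25). For the origins it was -5.16 points, and -0.801 with a G4Hunter threshold of 1.5. Within CpG classes the intervals of the zero and the highest group overlapped: at CpG-rich promoters the share was 61.8% (57.0% to 66.3%) and 60.4% (58.8% to 61.9%), and at CpG-poor promoters 69.1% and 70.2%. Promoters with a G4 held an origin more often in both of these groups. With a G4 within 1 kb of the 5′-most TSS, 29.9% of zero-group genes and 73.7% of the highest group had an origin, and without one 7.01% and 46.6%. At CpG-rich promoters these shares were 79.0% and 76.2% with a G4, and 59.4% and 49.8% without.

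The predicted G4 closest to the centre of 3 origins is shown with 10 bases on each side, on its G-rich strand, with runs of at least 3 G in capitals, to show what was counted. The origin of Pkm (chr9:59656500-59657270) had peaks in all 3 lists, and the stretch is chr9:59657014-59657079. Pou5f1 encodes the pluripotency factor OCT4, and its origin shown here (chr17:35509490-35510182), near an annotated TSS inside the gene, also had peaks in all 3 lists, and the stretch is chr17:35510167-35510243. The third is the origin of Mcm7 (chr5:138171129-138171266), which encodes a subunit of the replicative helicase, with the stretch chr5:138171605-138171665. All 3 stretches are on the minus strand of GRCm38.p6.
Pkm G4: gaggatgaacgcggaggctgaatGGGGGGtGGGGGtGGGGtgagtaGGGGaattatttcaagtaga
Pou5f1 G4: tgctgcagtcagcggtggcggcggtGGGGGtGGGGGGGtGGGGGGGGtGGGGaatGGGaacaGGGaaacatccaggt
Mcm7 G4: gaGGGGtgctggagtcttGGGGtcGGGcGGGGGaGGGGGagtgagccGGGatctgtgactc

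Genes of the pluripotency network, which holds ES cells undifferentiated, were nearly all in the highest group (18 of 20), and 12 of 20 had an origin at the promoter (60.0%, 38.7% to 78.1%), against 44.2% of all genes and 64.7% of the highest group. Their origins went with CpG content: 8 of the 9 members with a CpG-rich promoter and 4 of the 11 others had one. Pou5f1 had 1345, 1599 and 1293 CPM and peaks of 13.9, 11.5 and 12.4-fold enrichment in replicates 1, 2 and 3. Klf4 had 144, 175 and 154 CPM, and its strongest peaks within 2 kb of a TSS reached 8.79, 9.33 and 9.03-fold. The core factor Nanog, in contrast, had 460, 468 and 430 CPM and no peak of any list at the promoter, and likewise Zfp42 with 755, 898 and 664 CPM and Tdgf1 with 1342, 1268 and 935 CPM. Sox2, with 564, 629 and 585 CPM, had a peak in replicates 1 and 2 only. Dppa5a was the most highly expressed member, at 2442, 2194 and 1859 CPM, with peaks of 5.17 and 3.82-fold in replicates 1 and 2 that did not overlap, and so with no origin. Prdm14 (17.2, 19.8 and 20.7 CPM) and Dppa3 (19.5, 21.6 and 25.8 CPM), the least expressed, had no peak at the promoter.

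Genes for cytosolic ribosomal proteins had a median of 1337 CPM, and 56 of 81 had an origin at the promoter (69.1%, 58.4% to 78.1%), against 44.2% of all genes and 64.7% of the highest group, which holds 74 of them. Peaks were found at 70, 54 and 39 of them in replicates 1, 2 and 3. Rpl4 had 3448, 3754 and 3153 CPM and an origin from replicates 1 and 2. Rplp0, a protein of the ribosomal stalk, had 3471, 3897 and 2914 CPM and peaks of 8.80, 6.52 and 4.13-fold. Of the 25 members without an origin, Rps4x (2186, 2186 and 1739 CPM), Rps27a (1806, 2020 and 1548), Rpl9 (1796, 1833 and 1625) and Rpl21 (1649, 1777 and 1313) had no peak of any list at the promoter or in the body. Rpl26 had no count in any library, and reads of ribosomal protein genes can be lost to near-identical pseudogene copies, so levels within this list are uncertain. Housekeeping genes, 15 of 16 in the highest group, had an origin at 14 promoters (87.5%, 64.0% to 96.5%), against 44.2% of all genes and 64.7% of the highest group. Among them were Hsp90ab1 and Hspa8, which encode chaperones, and Actb. Peaks were found at 15, 13 and 9 of the 16 in replicates 1, 2 and 3. Tubb5 counted through a merged region, with a peak of replicate 1 only within 2 kb of a TSS. The 2 members without an origin were Pgk1, a glycolytic enzyme with 1344, 1243 and 1407 CPM and no peak at the promoter, and Ldha with a promoter peak in replicate 1 only.

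The genes whose products license and fire origins showed a share close to that of all genes, but below that of the highest group. Of 29 members, 23 were in the highest group and 24 had a CpG-rich promoter, and 13 had an origin (44.8%, 28.4% to 62.5%). These were 11 of the 24 with a CpG-rich promoter (45.8%) and 2 of the other 5. Over the expression groups, 66.1% to 74.9% of CpG-rich promoters had an origin. Mcm7, at 562, 542 and 622 CPM, had peaks of 3.62, 4.99 and 5.46-fold, and Mcm6, at 396, 402 and 437 CPM, had peaks in replicates 1 and 2. Mcm5 (499, 508 and 625 CPM) had a peak in replicate 1 only. Mcm3 (489, 449 and 631 CPM) and Mcm4 (335, 301 and 405 CPM), which encode other subunits of the same helicase, had none within 2 kb of a TSS. Among the least expressed, Gins3 (16.2, 16.6 and 15.9 CPM) and Mtbp (36.1, 39.3 and 36.9 CPM) had no peak at the promoter. All genes had an origin in 44.2% of cases and the genes of the highest group in 64.7%.

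Both sets of developmental genes had a low median level, and their shares are set beside 44.2% of all genes and, for CpG-rich promoters, 74.9% of the zero and 71.5% of the lowest group. Of 39 Hox genes, none had a mean above 1.29 CPM, 10 had no count, and 26 had an origin at the promoter (66.7%, 51.0% to 79.4%), 18 of the 23 with a CpG-rich promoter and 8 of the other 16. These genes lie in clusters, so that neighbours can share origins. Hoxc13, at 1.63, 1.08 and 1.16 CPM, had peaks of 11.6, 8.35 and 7.29-fold, and Hoxb9, at 0.95, 1.12 and 0.837 CPM, had peaks in replicates 1 and 2. Hoxa2, without counts, had a peak in replicate 1 only. Of 30 transcription factors of later lineages, with a median of 0.326 CPM, 19 had an origin (63.3%, 45.5% to 78.1%), 16 of the 24 with a CpG-rich promoter and 3 of the other 6. Olig2 had no count and 4 origins at its promoter, with strongest peaks of 7.20, 6.68 and 4.77-fold. Irx3, at 0.203, 0.135 and 0.159 CPM, had peaks of 8.78, 8.14 and 9.40-fold. The endoderm factor Gata4 (12.9, 11.8 and 7.17 CPM) had an origin from replicates 1 and 2, while Sox17 (3.26, 4.59 and 2.55 CPM) had no peak within 2 kb of a TSS but 4 origins in its body.

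Replication-dependent histone genes had the highest share of all gene lists: 65 of 68 had an origin at the promoter (95.6%, 87.8% to 98.5%), against 44.2% of all genes. These were 49 of the 50 with a CpG-rich promoter and 16 of the other 18. Over the expression groups, CpG-rich promoters had shares of 66.1% to 74.9% and CpG-poor ones of 11.4% to 46.2%. A peak in all 3 lists was found at 64 of 68, against 8.64% of zero-group genes and 36.3% of the highest group. Only the linker histone genes Hist1h1b, Hist1h1e and Hist1h1t had no origin. Here replicate 3 did not fall behind, with a peak at 94.1% of the genes against 98.5% and 95.6% in replicates 1 and 2. The median of the strongest peak per gene was 13.6, 10.5 and 12.2-fold in replicates 1, 2 and 3. By −log10 p, the median over genes of the highest peak percentile was 99.0, 99.1 and 97.8 within each list. As 54 of the genes lie on chromosome 13, mostly side by side, the whole list had 59 origins. The level of these genes was low, with a median of 0.327 CPM and 11 genes without a count, and no member was in the highest group. Histone messages of this class end in a stem-loop and carry no poly(A) tail, so a kit for polyadenylated mRNA does not measure their transcription. The most expressed was Hist1h1a with 6.04, 2.79 and 3.19 CPM, and Hist1h2ao and Hist1h2ap, which have near-identical copies, had no count and peaks of between 7.75 and 17.4-fold.

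**Figure D5:**
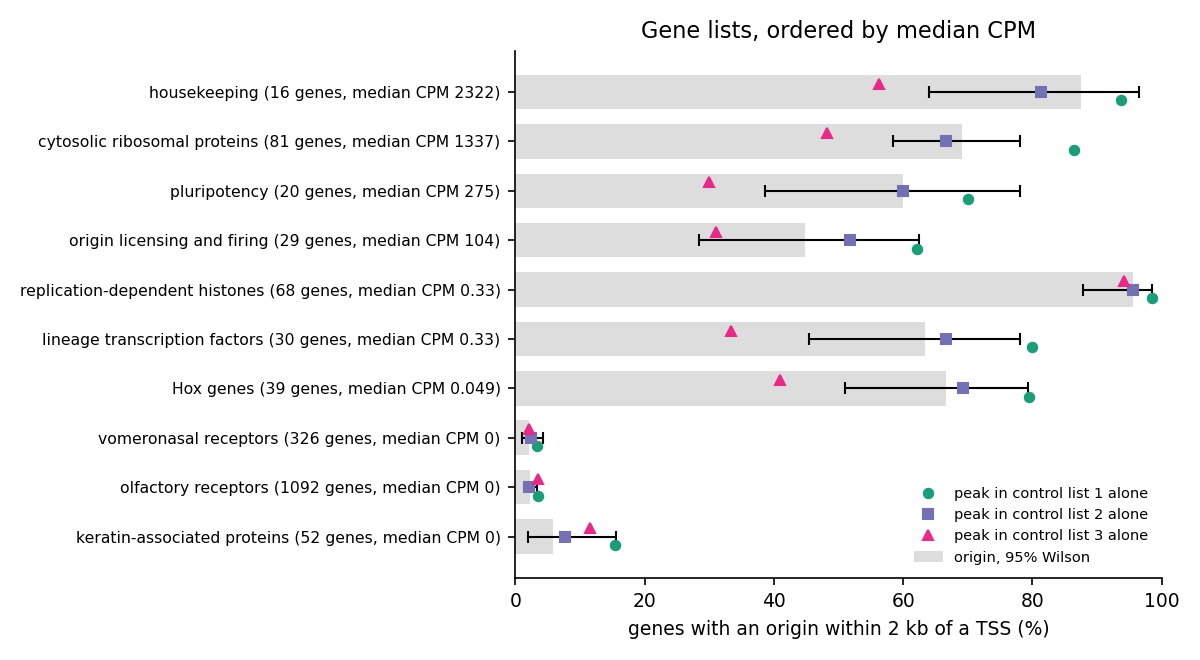
Share of genes with an origin within 2 kb of a TSS for 10 gene lists, ordered by median control CPM, with 95% Wilson intervals (grey bars) and the share with a peak in each control list alone (points). Histone genes reach 95.6%, Hox genes and lineage factors lie near the pluripotency genes, and the chemoreceptor and keratin-associated genes at the bottom have the shortest bars, at 2.15% to 5.77%, with points of up to 15.4% for keratin-associated genes in list 1.

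Origins were infrequent at promoters of tissue-specific gene families that lie mostly in the zero group. The share was 44.2% for all genes and 14.6% for the zero group. For zero-group genes in the 2 classes of lowest GC content it was 4.76% and 13.7%. Of 1092 olfactory receptor genes, 1053 had no count and 25 had an origin at the promoter (2.29%, 1.56% to 3.36%), and of 326 vomeronasal receptor genes 7 had one (2.15%). Olfr613, the most expressed olfactory receptor gene with 4.51, 6.21 and 4.86 CPM, had no peak within 2 kb of a TSS, and neither had Vmn1r58 with 9.84, 15.7 and 6.14 CPM. Of 52 genes for keratin-associated proteins of hair, all without counts, 3 had an origin (5.77%, 1.98% to 15.6%). A peak was found at 15.4%, 7.69% and 11.5% of them in replicates 1, 2 and 3. None of the olfactory receptor and keratin-associated promoters and 1 of the vomeronasal ones was CpG-rich. Their median GC content was 39.2% for olfactory receptors, 36.9% for vomeronasal receptors and 48.9% for keratin-associated proteins. By comparison, 7.26% of windows of 4001 bp more than 10 kb from any TSS held an origin. Chemoreceptor genes occur in large families of similar copies, and the part of reads that map to several places was not tested.

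Genes without counts that had an origin were of several kinds, and a lack of counts does not show a lack of transcription for all of them. Of the 891 genes of the zero group with an origin at the promoter, 458 were protein-coding, 244 were microRNA genes and 166 long non-coding RNA genes, and 573 had another annotated gene within 5 kb. Where no other gene lay within 5 kb, 8.25% of zero-group genes and 65.5% of the highest group had an origin. The 5 with the strongest peaks in all 3 lists were Mir675, Muc5b, Lcn10, 4931440J10Rik and Neu4. Mir675, which lies within the imprinted transcript H19, had peaks of 22, 18.0 and 25.9-fold, and mRNA kits do not measure a microRNA. Muc5b, a mucin of airways, had peaks of 15.8, 14.2 and 19.9-fold, and the middle of its origin lay 1550 bp downstream of the TSS. The sialidase gene Neu4 had peaks of 15.8, 15.1 and 16.2-fold at an origin 1923 bp downstream.

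At the other end, 1258 genes of the highest group had no origin at the promoter and 259 had no peak of any list at the promoter or in the body. The most expressed of the latter was Rps4x, followed by Rps27a, Rpl9, Prdx1 and Rpl21. Prdx1, a peroxidase that removes hydrogen peroxide, had 1870, 1763 and 1600 CPM over 14.4 kb. Among genes with an origin in all 3 lists, the most expressed were Eef1a1 (12279, 10517 and 11302 CPM), Hsp90ab1, Hspa8, Ftl1, which encodes the ferritin light chain, and Pkm. The strongest peaks at Eef1a1 were 4.95, 5.53 and 3.49-fold, and at Ftl1 13.6, 8.34 and 10.8-fold. These genes were picked for having or lacking peaks, so they show only that both kinds occur among highly expressed genes.

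The genes that the study used as examples spread over the groups. Rai1, a transcriptional regulator at 7.29, 9.72 and 15.2 CPM, had 6 origins at its promoter and peaks of up to 18.1, 6.80 and 6.04-fold. Hip1, for a clathrin-binding protein, had 29.0, 34.7 and 38.9 CPM and peaks of 11.5, 10.6 and 8.97-fold. Mafg, a small MAF factor at 31.0, 26.5 and 43.8 CPM, had peaks of 3.88, 8.93 and 3.89-fold. Xpa, a nucleotide excision repair factor at 3.39, 4.32 and 2.59 CPM, had peaks in replicates 1 and 2 only. Mir466n had neither counts nor a peak within 2 kb of its start.

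Seen from the origins, 23.8% of all 73169 lay within 2 kb of a TSS of a grouped gene. Promoters of the highest group held 280 origins per Mb, those of the zero group 51.8 per Mb and the sequenced genome 27.6 per Mb. On autosomes, 15.3% of zero-group and 65.5% of highest-group genes had an origin at the promoter, and on the X chromosome 5.51% of 381 and 40.0% of 105. The X chromosome was thus lower in both groups, without weighting for base composition, and the cause was not tested.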

How the data were processed

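Only the 3 control SNS-seq peak lists and the 3 control columns of the RNA-seq table were used. The authors deposited whole-number counts per gene (TopHat2 2.1.1, Bowtie2 2.2.9 and HTSeq 0.6.1p1 in the submitters' processing notes). The annotation and strand setting of the counting are not given in the sources used here. The deposited peak lists (cutadapt 1.9.1, Bowtie2 2.2.5, MACS2 2.1.0 and SICER, mm10) give each peak's fold enrichment over 1 RNase-treated library, a ratio made by the authors, and the −log10 p of the peak caller, also as deposited. PhenDC3 samples, the RNase-treated libraries and the authors' table of fold changes (DESeq2 1.14.1, edgeR 3.16.5) were not used.

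CPM was computed from total counts (22232014 to 29486502 per library) and averaged. Genes were matched to GRCm38.p6 (the mm10 build) by gene number. Of 24079 rows, 125 were not matched, Rn45s among them, and 16 shared a gene number. Peaks were merged at 1 bp and kept as origins where at least 2 lists had one. G4 were predicted with G4Hunter (window 25, threshold 2). Shares carry 95% Wilson intervals, which cover counting error over genes only, and peaks come from PCR reads without molecular identifiers. The only test was a two-sided exact sign-flip permutation over the 3 lists, which cannot go below 0.25, with no test across genes. Python 3.11.15, numpy 2.4.6, pandas 2.3.3 and SciPy 1.17.1 were used, and scripts were tested on simulated data.

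The members and gene lists were chosen with earlier results of these data known. Named genes were the 5 most expressed with an origin present in all 3 lists, the 5 most expressed with no peak, the 5 zero-group genes with the highest mean fold enrichment, 5 genes the study names, and of each list the 2 highest and 2 lowest by CPM plus members that results turn on. The genes whose sequences are printed were chosen after their values were seen. Alternatives changed the merging, the peak threshold, the window, the grouping, the genes kept and the G4 settings, and left out each replicate. A result for 1 named gene is not reported here.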

Additional observations from a re-analysis of the deposited data

How the results depend on the processing

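Differences are the highest minus the zero group. Of 22 alternatives for the promoter share (50.1 points), 16 moved it by less than the spread between lists. It was 25.9 points with a peak required in all 3 lists, 10.8 when weighted to the same GC content, 12.8 when weighted to the same CpG ratio, and -7.11 among CpG-rich promoters, an alternative added after seeing the data. Leaving out 1 SNS-seq replicate gave 26.3 to 49.5 points, with 27.0 without replicate 1 and 26.3 without replicate 2, where both remaining lists had to hold the peak and replicate 3 was 1 of them. The body share (54.9 points) was 34.8 with all 3 lists, 43.5 with peaks above the median −log10 p, 38.4 when weighted to the same gene length, and 37.8 to 52.4 without 1 SNS-seq replicate. Strength (3.61 percentile points) was 0.122 with the upstream 2 kb only, and the G4 share (-5.16 points) was -0.801 with a threshold of 1.5 and -0.862 within 250 bp. For these, the cause was not tested. Without 1 SNS-seq replicate, density (1.78 with all) differed by 1.11 to 1.15 per 100 kb, strength by 2.85 to 4.64 and the G4 share by -5.53 to -3.47. Without 1 RNA-seq replicate the 5 results were 48.8 to 49.5, 53.2 to 53.4, 1.65 to 1.82, 3.88 to 4.15 and -5.32 to -5.13. No paired analysis was possible because no test compares sample groups that share replicate numbers. The lists hold no read counts, so how far depth sets the absence of a peak is unknown.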
